A study of Homo sapiens with 12 samples.

Results

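The human mitochondrial ribosomal proteins were taken as the protein-coding genes whose symbols begin with MRPL or MRPS and a number. 78 of the 58735 genes in the deposited count table met that definition, 49 named for the large subunit (MRPL) and 29 for the small subunit (MRPS), and all 78 were among the 20821 genes that passed the filter on low counts. They were measured by RNA-seq of bulk K562 cells, an erythroleukemia line that carries the BCR-ABL fusion, in 12 libraries of 4 groups with 3 biological replicates each. Mock DMSO cells received vehicle and no hemin, mock nilotinib cells received 0.1 µM nilotinib, an inhibitor of the BCR-ABL tyrosine kinase, and no hemin, hemin DMSO cells received vehicle and then 50 µM hemin for 24 h, and hemin nilotinib cells received 0.1 µM nilotinib before and then 50 µM hemin for 24 h. The study used hemin to drive erythroid differentiation and asked how nilotinib altered it. By the study's methods nilotinib or vehicle was added 24 h before hemin and cells were taken at 0 and 24 h, and the count table marks the mock columns with 0. If that 0 is the time of hemin addition, the hemin groups were also 24 h longer in culture, and the hemin nilotinib cells longer in nilotinib than the mock nilotinib cells, so that time and hemin cannot be told apart.

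Mitochondria carry their own ribosome, which translates the few messenger RNAs of the mitochondrial genome into core subunits of the respiratory chain. Its RNAs come from mitochondrial DNA, whereas its proteins are encoded in the nucleus, made in the cytosol and imported. Some of these proteins have bacterial counterparts and others exist only in mitochondrial ribosomes, and developing erythroid cells depend on mitochondria for heme synthesis before they discard them.

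The depth was 33457078 to 50506990 counts per library. On the first principal component, with 60% of the variance, the 6 nilotinib libraries lay at 63.3 to 95.6, mock DMSO at -24.7 to -20.3 and hemin DMSO at -154 to -138.1. The K562 identity of the cells was checked on 8 erythroid genes, which were above 0 in all libraries, and on CDKN2A and CDKN2B, which are deleted in this line and had 0 counts in every library. The summed level of the erythroid genes was 1220 to 1710 CPM in mock DMSO, 3890 to 5370 in mock nilotinib, 735 to 803 in hemin DMSO and 4190 to 4970 in hemin nilotinib, and with hemin alone 5 of the 8 fell and 2, the fetal globin genes HBG1 and HBG2, rose. The 10 markers of other cell types summed to 99.5 to 126 CPM in mock DMSO, 53.9 to 71.2 in mock nilotinib, 104 to 154 in hemin DMSO and 46.4 to 54.5 in hemin nilotinib, 6 of them above 0 in every library and none at 0 in all, with the B cell gene MS4A1 at 0 in all but 1 library. The part of these shifts in the results below was not tested, and in bulk RNA fewer cells of a type and less RNA per cell cannot be told apart.

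Levels of the members are given as CPM (counts relative to the library size, scaled by the trimmed mean of M values, TMM), and as CPM per kilobase of exon where genes are compared with each other. Differences between groups are log2 fold changes from edgeR's quasi-likelihood test. That test reports no SE, so the SE given here is the absolute log2 fold change over the square root of its F statistic. A gene was called higher or lower when its p adjusted by the Benjamini-Hochberg method over all 20821 genes was under 0.05. The p-values rest on the spread between samples within groups, pooled over the 4 groups of 3 samples. The labels call these samples biological replicates without saying how they were grown apart.

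The member with the strongest response to hemin was MRPL18, a protein of the central protuberance of the large subunit, at chr6:159789812-159798436 on the plus strand (GRCh38.p12). Its start lies close to that of TCP1, a subunit of the cytosolic chaperonin CCT, which is transcribed away from it on the other strand. The stretch between both annotated genes, 62 bases before the MRPL18 start at chr6:159789750-159789811 on the plus strand (RefSeq, GRCh38.p14), is shown because both genes begin at its ends, and a 24-base stretch downstream of the start at chr6:159789818-159789841 is shown because it holds the letters GAANNTTC of a heat shock element, in capitals.
MRPL18 and TCP1 intergenic: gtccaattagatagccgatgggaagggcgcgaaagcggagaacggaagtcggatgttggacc
MRPL18 downstream of the start: aagaggttGAACCTTCgcctcaaa
The search for that element was added after the value of MRPL18 was known. The promoter of MRPL58 (chr17:75012420-75012669, plus strand), a member that rose with hemin, and that of MRPL19 (chr2:75646533-75646782, plus strand), a member that fell, are shown as the 250 bases before the start, both free of annotated exons. Capitals mark 2 ETS motifs (CCGGAAG, read from either strand) in MRPL58 and a YY1 motif (ATGGCG, here on the other strand) in MRPL19.
MRPL58: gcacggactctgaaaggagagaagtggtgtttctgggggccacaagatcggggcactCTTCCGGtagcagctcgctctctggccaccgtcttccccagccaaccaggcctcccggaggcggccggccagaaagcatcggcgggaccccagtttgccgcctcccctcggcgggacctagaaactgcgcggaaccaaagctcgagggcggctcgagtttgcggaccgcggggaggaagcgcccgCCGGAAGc
MRPL19: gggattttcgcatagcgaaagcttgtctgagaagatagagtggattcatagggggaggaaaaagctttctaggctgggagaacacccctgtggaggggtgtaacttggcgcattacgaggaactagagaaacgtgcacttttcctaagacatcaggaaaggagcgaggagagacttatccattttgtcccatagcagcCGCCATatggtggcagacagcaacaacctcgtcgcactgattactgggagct

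With hemin alone (hemin DMSO against mock DMSO) members changed in both directions, as did all tested genes. Of the 78 members 18 were higher and 28 lower, 32 did not pass the test, and the median log2 fold change was -0.16 against -0.05 over all tested genes. Of all tested genes 25.7% were higher and 27.8% lower, where the shares of the members were 23.1% and 35.9%. By subunit name, 14 of 49 MRPL genes rose and 17 fell, with a median of -0.10, and 4 of 29 MRPS genes rose and 11 fell, with a median of -0.32. The split depended on scaling: without composition factors 10 members were higher and 40 lower while the median over all genes was -0.29, and with upper-quartile factors 23 were higher and 26 lower, at an all-gene median of 0.07. The median of the members was -0.06, -0.30 and -0.08 without hemin DMSO replicate 1, 2 and 3, and -0.26 without mock DMSO replicate 1.

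MRPL18 stood at 61.2, 64.6 and 62.8 CPM in mock DMSO, 56.1, 53.1 and 53.3 in mock nilotinib, 451, 713 and 594 in hemin DMSO and 65.7, 95.5 and 120.0 in hemin nilotinib. The 3 hemin DMSO libraries lay far above all others, the hemin nilotinib libraries came next with the lowest of them just above the highest mock DMSO library, and the mock nilotinib libraries were the lowest, so that no groups overlapped. MRPL18 rose 9.32-fold with hemin alone (log2 fold change 3.22 ± 0.20 (SE), adjusted p = 1.09e-08, edgeR). It made up 1.61% to 1.73% of the summed CPM of the members in mock DMSO and 13.2% to 16.1% in hemin DMSO. TCP1, its divergent neighbour, averaged 346 CPM in mock DMSO and 847 CPM in hemin DMSO, with 1.29 as its log2 fold change (adjusted p = 5.87e-06, edgeR).

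The next largest rises were those of MRPS6 and MRPS18C, counterparts of bacterial proteins bS6 and bS18 that bind each other in the small subunit. MRPS6 measured 22.6, 21.7 and 22.4 CPM in mock DMSO, 26.3, 28.1 and 32.9 in mock nilotinib, 49.3, 61.7 and 53.1 in hemin DMSO and 31.4, 33.02 and 37.6 in hemin nilotinib. All 3 hemin DMSO libraries lay above every other library, and the mock DMSO libraries lay below every other one. The MRPS6 difference with hemin alone was 1.30 (± 0.14 SE, adjusted p = 1.22e-06, edgeR). MRPS18C measured 11.7, 11.1 and 12.9 CPM in mock DMSO, 11.7, 12.1 and 13.7 in mock nilotinib, 17.9, 22.9 and 22.1 in hemin DMSO and 12.4, 15.4 and 15.6 in hemin nilotinib. Its hemin DMSO libraries were again the highest and did not overlap the others, at a log2 change of 0.82 (± 0.16 SE, adjusted p = 0.000412, edgeR). Of the other S18 paralogs, MRPS18A, which sits in the large subunit, had a log2 fold change of 0.12 (adjusted p = 0.439, edgeR) and MRPS18B had one of -0.36 (adjusted p = 0.0569, edgeR). Of the exon bases of MRPS18C 40.2% are overlapped on the other strand by ABRAXAS1, which had a log2 fold change of -0.87, and 9.6% of those of MRPS6 are shared on the same strand with SLC5A3 and AP000317.2. Whether the counting used strand is not given in the sources used here.

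MRPL58, a peptidyl-tRNA hydrolase that is built into the large subunit and frees stalled ribosomes, measured 29.4, 35.2 and 37.5 CPM in mock DMSO, 19.6, 20.7 and 21.1 in mock nilotinib, 58.9, 62.2 and 53.3 in hemin DMSO and 22.2, 22.5 and 21.1 in hemin nilotinib. The 4 groups were ordered with hemin DMSO highest, mock DMSO next and both nilotinib groups lowest, and the latter overlapped each other only. MRPL58 rose by 0.77 on the log2 scale with hemin alone (± 0.13 SE, adjusted p = 0.000101, edgeR). MRPL33, a short protein with a bacterial counterpart, measured 15.2, 15.6 and 16.9 CPM in mock DMSO, 13.4, 13.1 and 14.6 in mock nilotinib, 21.3, 33.1 and 25.8 in hemin DMSO and 13.02, 12.6 and 11.8 in hemin nilotinib. Hemin DMSO was again the only group above mock DMSO, without overlap, and the rise was 0.75 (± 0.16 SE, adjusted p = 0.000971, edgeR). Of the exons of MRPL33 21.1% are shared on the same strand with BABAM2, whose log2 fold change was 0.35 (adjusted p = 0.146, edgeR). The other members that rose were MRPL47, MRPL44, MRPL23, MRPL13, MRPL54, MRPL22, MRPL52, MRPL11, MRPL51, MRPL48, MRPL28, MRPS15 and MRPS22, at log2 fold changes from 0.35 to 0.73. The number that rose was 11 without mock DMSO replicate 1.

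**Figure D1:**
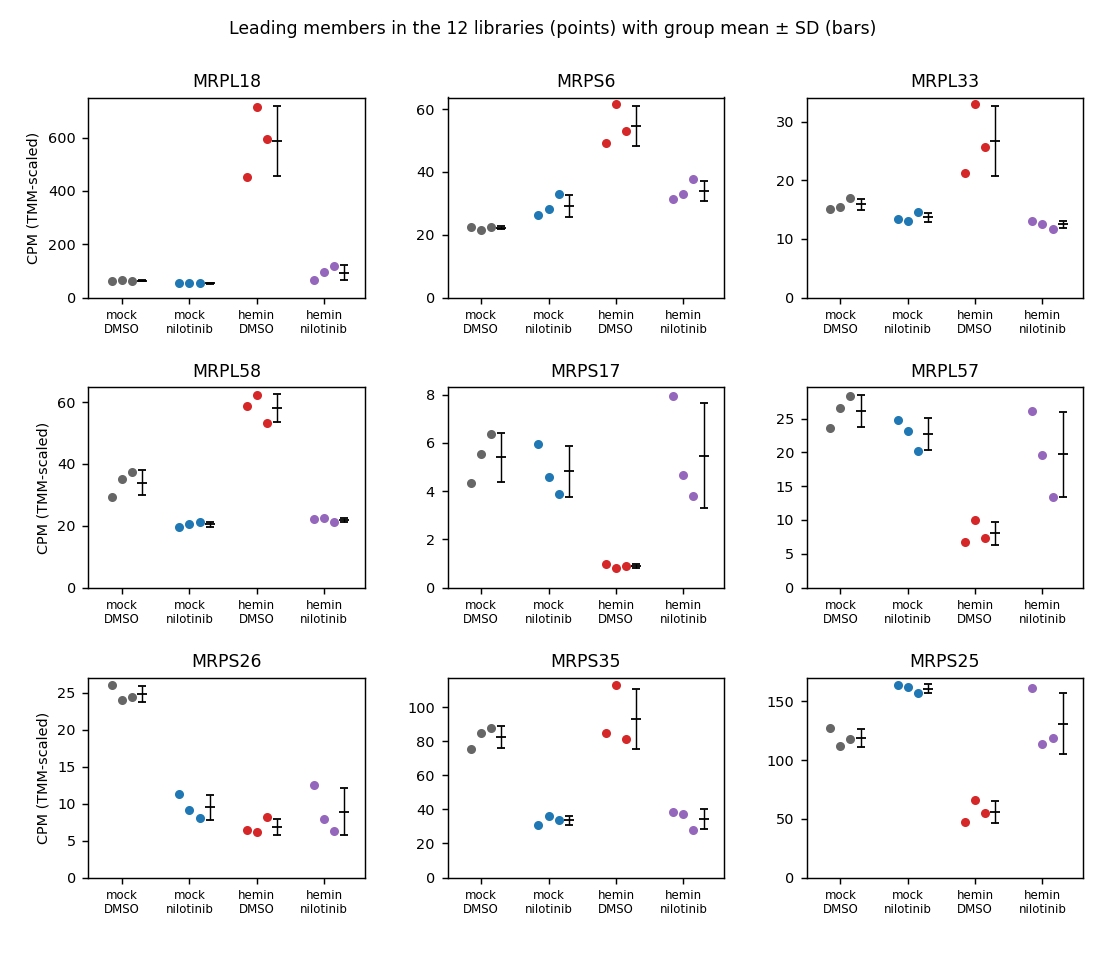
Level of 9 leading members in CPM (vertical axes from 0, TMM-scaled) in the 4 groups on the horizontal axes; points are the 12 libraries, and bars the group mean ± SD of 3 libraries. The hemin DMSO libraries stand highest for MRPL18, MRPS6, MRPL33 and MRPL58 and lowest for MRPS17, MRPL57 and MRPS25, whereas MRPS35 is lower in both nilotinib groups and MRPS26 is highest in mock DMSO.

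The largest fall with hemin alone was that of MRPS17, the counterpart of bacterial uS17, a protein that binds the small-subunit rRNA. MRPS17 measured 4.32, 5.53 and 6.34 CPM in mock DMSO, 5.96, 4.58 and 3.89 in mock nilotinib, 0.981, 0.798 and 0.888 in hemin DMSO and 7.93, 4.67 and 3.81 in hemin nilotinib. All hemin DMSO libraries were far below the rest, and the other 3 groups overlapped one another. The fall was 6.05-fold (log2 fold change -2.60 ± 0.31 (SE), adjusted p = 3.9e-06, edgeR). Of the exons of MRPS17 27.0% are shared on the same strand with NIPSNAP2 and AC092647.5, and NIPSNAP2 had a log2 fold change of -1.01 (adjusted p = 0.00121, edgeR).

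MRPS26 and MRPL57, both specific to mitochondrial ribosomes, followed. MRPS26 measured 26.1, 24.02 and 24.4 CPM in mock DMSO, 11.3, 9.16 and 8.02 in mock nilotinib, 6.37, 6.16 and 8.14 in hemin DMSO and 12.5, 7.88 and 6.36 in hemin nilotinib. The mock DMSO libraries lay above all others, and the other 3 groups overlapped. Its log2 fold change with hemin alone was -1.85 (± 0.23 SE, adjusted p = 5.77e-06, edgeR). MRPL57 measured 23.6, 26.5 and 28.3 CPM in mock DMSO, 24.8, 23.2 and 20.1 in mock nilotinib, 6.77, 9.92 and 7.38 in hemin DMSO and 26.1, 19.6 and 13.4 in hemin nilotinib. Its hemin DMSO libraries were the 3 lowest, at a log2 change of -1.70 (± 0.22 SE, adjusted p = 8.01e-06, edgeR).

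MRPS12, the counterpart of bacterial uS12 at the decoding centre, measured 41.7, 47.7 and 45.8 CPM in mock DMSO, 24.8, 19.4 and 18.6 in mock nilotinib, 19.7, 21.3 and 14.6 in hemin DMSO and 29.4, 18.01 and 14.8 in hemin nilotinib. The mock DMSO libraries lay above every other library and the other 3 groups overlapped. With hemin alone MRPS12 had a log2 change of -1.28 (± 0.22 SE, adjusted p = 0.00013, edgeR), and 16.3% of its exons are overlapped on the other strand by SARS2. MRPS30, named for the small subunit but located in the large one, measured 79.8, 87.05 and 89.6 CPM in mock DMSO, 56.4, 64.4 and 60.8 in mock nilotinib, 34.3, 36.9 and 34.9 in hemin DMSO and 57.95, 59.5 and 50.3 in hemin nilotinib. Mock DMSO was highest, hemin DMSO lowest and both nilotinib groups lay between and overlapped, and the log2 fold change with hemin was -1.27 (± 0.12 SE, adjusted p = 3.54e-07, edgeR). The other 23 members that fell ranged from -1.22 to -0.41 on the log2 scale and were MRPL15, MRPL16, MRPS25, MRPL19, MRPL38, MRPL46, MRPL12, MRPL36, MRPL17, MRPS16, MRPS2, MRPL43, MRPL35, MRPS27, MRPL50, MRPL27, MRPL14, MRPL32, MRPS11, MRPL34, MRPS7, MRPL49 and MRPS5.

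With nilotinib in cells that received no hemin (mock nilotinib against mock DMSO) the members moved mostly one way. Of the 78 members 3 were higher and 33 lower, against 20.7% higher and 21.8% lower of all tested genes, so 3.85% and 42.3% of the members passed in each direction. The median log2 fold change was -0.31 over the members and 0.00 over all genes. The falls involved 23 of 49 MRPL genes and 10 of 29 MRPS genes. Among large-subunit proteins with a bacterial counterpart 19 of 31 fell and 1 rose, among the large-subunit proteins specific to mitochondria 6 of 20 fell, and the small-subunit classes gave 3 of 17 and 5 of 9 that fell.

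The largest falls were in MRPS26, given above (log2 fold change -1.39 ± 0.22 SE, adjusted p = 0.000104, edgeR), and in MRPS35, a small-subunit protein without a bacterial counterpart. MRPS35 measured 75.5, 84.8 and 87.9 CPM in mock DMSO, 30.8, 36.1 and 33.9 in mock nilotinib, 84.8, 113 and 81.5 in hemin DMSO and 38.2, 37.5 and 27.8 in hemin nilotinib. Both nilotinib groups lay under both DMSO groups without overlap, and nilotinib without hemin gave -1.30 (± 0.16 SE, adjusted p = 5.72e-06, edgeR). MRPL4 and MRPL24, counterparts of uL4 and uL24 near the tunnel through which the new protein leaves, and MRPS12 were the next. MRPL4 measured 61, 61.8 and 64.2 CPM in mock DMSO, 28, 22.8 and 25.9 in mock nilotinib, 41.6, 72.3 and 47.2 in hemin DMSO and 37.1, 24.6 and 17.7 in hemin nilotinib. Every mock nilotinib library lay below every mock DMSO library, and the 3 hemin nilotinib libraries were spread from the lowest of all to above the mock nilotinib range. The MRPL4 change was -1.29 (± 0.23 SE, adjusted p = 0.000277, edgeR).

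MRPL24 measured 28.04, 26.4 and 27.9 CPM in mock DMSO, 13.2, 13.2 and 10.9 in mock nilotinib, 17.3, 33.9 and 21.2 in hemin DMSO and 16.6, 10.5 and 7.32 in hemin nilotinib. The mock nilotinib libraries were again below all mock DMSO libraries, at -1.14 on the log2 scale (± 0.26 SE, adjusted p = 0.00209, edgeR). MRPS12 changed by -1.10 (± 0.22 SE, adjusted p = 0.000632, edgeR). The remaining 28 ranged from -1.07 to -0.36 and were MRPS2, MRPL47, MRPL42, MRPL3, MRPL12, MRPL1, MRPL34, MRPL58, MRPS22, MRPL48, MRPL21, MRPL52, MRPS23, MRPL30, MRPL13, MRPL15, MRPL36, MRPL16, MRPS18B, MRPL44, MRPS27, MRPL23, MRPL10, MRPL2, MRPS30, MRPS18A, MRPL9 and MRPL32.

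The 3 that rose were MRPS25, MRPL35 and MRPS6, the last given above at 0.39 (± 0.13 SE, adjusted p = 0.0286, edgeR). MRPS25, a small-subunit protein specific to mitochondria, measured 127, 112 and 118 CPM in mock DMSO, 164, 162 and 158 in mock nilotinib, 46.9, 65.7 and 54.8 in hemin DMSO and 161, 114 and 119 in hemin nilotinib. The mock nilotinib libraries lay above the mock DMSO ones and the hemin DMSO libraries were the 3 lowest, with 0.44 for nilotinib without hemin (± 0.15 SE, adjusted p = 0.026, edgeR). Of the exons of MRPS25 22.2% are overlapped on the other strand by NR2C2, which also had 0.44 (adjusted p = 0.025, edgeR). SLC5A3, which shares exons with MRPS6, had 0.45 (adjusted p = 0.0126, edgeR). With hemin alone NR2C2 had -0.42 beside -1.09 for MRPS25, and SLC5A3 had -0.31 beside 1.30 for MRPS6. The part of shared reads in these values was not tested. MRPL35, the counterpart of bacterial bL35, measured 54.96, 50.9 and 59.6 CPM in mock DMSO, 68.4, 73.1 and 76.95 in mock nilotinib, 32.6, 32.04 and 31.1 in hemin DMSO and 85.3, 79.4 and 72.8 in hemin nilotinib. Hemin DMSO was lowest, mock DMSO next and both nilotinib groups highest, and the change was 0.40 (± 0.12 SE, adjusted p = 0.0105, edgeR). These 3 calls were lost when some single libraries were left out, and the number of members called higher was 0 without mock DMSO replicate 1, mock DMSO replicate 2, mock nilotinib replicate 2 or mock nilotinib replicate 3 and 1 without mock DMSO replicate 3. It was 2 without mock nilotinib replicate 1 and 2 to 4 without any 1 of the hemin libraries.

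With nilotinib in hemin-treated cells (hemin nilotinib against hemin DMSO) 16 members were higher and 35 lower, and 27 did not pass. Of all tested genes 32.4% were higher and 31.8% lower in this comparison, and of the members 20.5% and 44.9%. The median was -0.27 over the members and 0.02 over all genes, and it was -0.13 over the members without hemin DMSO replicate 2. Without composition factors the counts were 20 higher and 25 lower, with a median of -0.08 over the members and 0.20 over all genes. The comparison shares the hemin DMSO libraries with that of hemin alone, and each of the 4 groups serves in 2 comparisons, so a member that was extreme in those 3 libraries differs the opposite way here, and values are only given side by side.

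The largest changes downward were in MRPL18 (-2.64 ± 0.20 SE, adjusted p = 1.64e-08, edgeR), MRPS35 (-1.43), MRPL58 (-1.41), MRPL47 and MRPL52. MRPL47, the counterpart of uL29 at the exit tunnel, measured 31.2, 33.7 and 38.1 CPM in mock DMSO, 18.4, 17.8 and 17.1 in mock nilotinib, 51.9, 66.7 and 52.6 in hemin DMSO and 27.8, 23.1 and 21.7 in hemin nilotinib. The hemin DMSO libraries were the highest, mock DMSO came next and the nilotinib groups were lowest without overlap among the 4 groups, and its log2 change was -1.24 (± 0.15 SE, adjusted p = 1.87e-06, edgeR). MRPL52, specific to mitochondria, measured 46.7, 46.8 and 50.6 CPM in mock DMSO, 30.3, 29.5 and 31.5 in mock nilotinib, 57.97, 81.6 and 67.97 in hemin DMSO and 32.9, 27.5 and 28.2 in hemin nilotinib. The order of the groups was the same but both nilotinib groups overlapped, and its log2 change was -1.23 (± 0.14 SE, adjusted p = 1.08e-06, edgeR). MRPS35 and MRPL58 had adjusted p-values of 8.71e-07 and 1.4e-07 (edgeR).

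The largest changes upward were in MRPS17 (2.61 ± 0.31 SE, adjusted p = 1.91e-06, edgeR), MRPL35 (1.31), MRPL57 (1.30), MRPL38 and MRPS25 (1.23). MRPL38, a mitochondria-specific protein of the central protuberance, measured 4.96, 3.74 and 4.61 CPM in mock DMSO, 5.35, 4.29 and 6.57 in mock nilotinib, 1.99, 2.04 and 2.28 in hemin DMSO and 5.002, 4.01 and 6.05 in hemin nilotinib. Its hemin DMSO libraries were the 3 lowest and the other groups overlapped, and its log2 change was 1.25 (± 0.24 SE, adjusted p = 0.000247, edgeR), or 0.56 in limma on log2(FPKM + 1). Of the exons of MRPL38 37.5% are shared with AC087289.3, which averaged 0.217 to 0.331 CPM over the groups. The adjusted p-values of MRPL35, MRPL57 and MRPS25 were 1.05e-07, 6.76e-05 and 3.17e-06 (edgeR).

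The other members that were higher were MRPL46, MRPL50, MRPL27, MRPL19, MRPS30, MRPS11, MRPS16, MRPL16, MRPL14, MRPL49 and MRPL43, at 0.41 to 1.10. The other 30 that were lower lay between -1.18 and -0.32 and were MRPL48, MRPL44, MRPL33, MRPL24, MRPL13, MRPS22, MRPL21, MRPL23, MRPL4, MRPL11, MRPL1, MRPL42, MRPL54, MRPS15, MRPL3, MRPS6, MRPL10, MRPL30, MRPL40, MRPL51, MRPS18C, MRPL34, MRPS2, MRPS34, MRPS31, MRPL45, MRPL2, MRPS18B, MRPS18A and MRPL55.

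**Figure D2:**
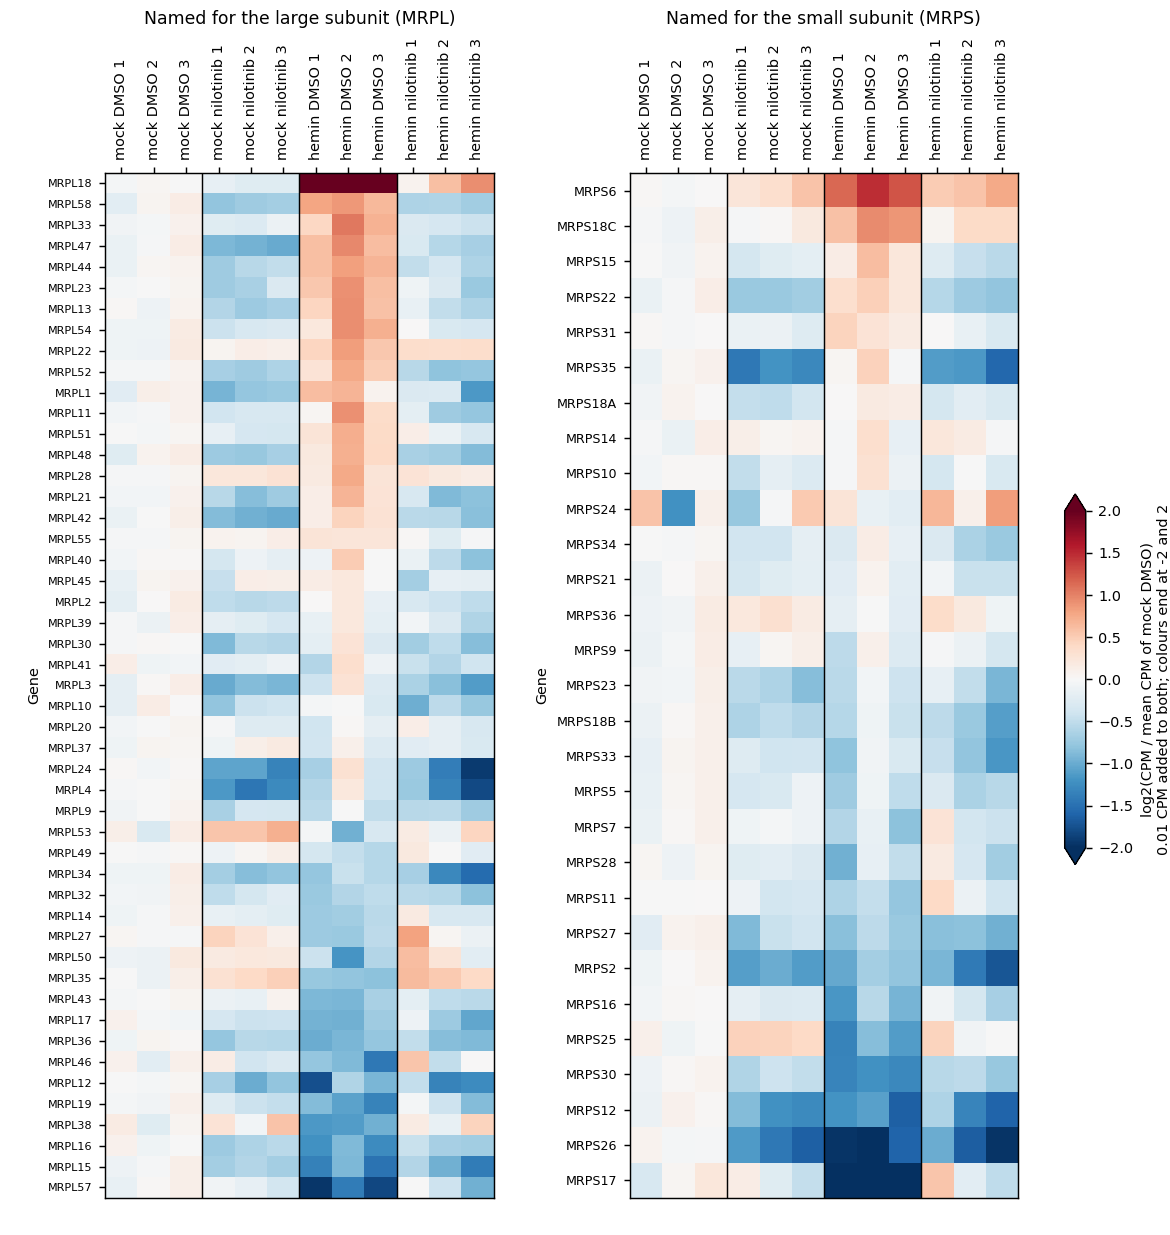
Level of every member (rows, ordered by the log2 fold change with hemin alone within MRPL and MRPS genes) in each of the 12 libraries (columns), as log2 of its CPM over the mean CPM of the 3 mock DMSO libraries. Red is higher and blue lower, and the hemin DMSO columns hold both the strongest red, in MRPL18, and the strongest blue, in MRPS17, while blue prevails in the columns of both nilotinib groups.

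Hemin added to nilotinib-treated cells (hemin nilotinib against mock nilotinib) changed few members past the threshold. Of the 78 only MRPL18 passed, with a rise of 0.79 (± 0.19 SE, adjusted p = 0.0248, edgeR), so 1 member was higher and 0 lower by edgeR, where 3.52% of all tested genes were higher and 2.28% lower. DESeq2 also called 1 higher and 0 lower, and 3 members had an unadjusted p under 0.05 with a higher and 4 with a lower level in edgeR. The log2 fold changes of the members ran from -0.43 to 0.79 with an interquartile range of 0.28, against 1.02 for hemin without nilotinib. The call of MRPL18 did not last when some single libraries were left out. The count was 0 without any 1 of the 3 mock nilotinib libraries or without hemin nilotinib replicate 2 or 3, and 7 (1 higher, 6 lower) without hemin nilotinib replicate 1, whose MRPL18 level was the lowest of its group.

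The interaction, the effect of nilotinib with hemin minus its effect without hemin, was called positive for 16 members and negative for 6, and 56 did not pass. Of all tested genes 17.1% were called positive and 13.0% negative. The median was 0.07 over the members and 0.06 over all genes, called or not. The most positive were MRPS17 (2.78 ± 0.41 SE, adjusted p = 0.000156, edgeR), MRPS26 (1.75 ± 0.31 SE, adjusted p = 0.000776, edgeR) and MRPL57 (1.5 ± 0.30 SE, adjusted p = 0.00158, edgeR). The most negative were MRPL18 (-2.43 ± 0.27 SE, adjusted p = 1.64e-05, edgeR), MRPS6 (-1.07 ± 0.19 SE, adjusted p = 0.000709, edgeR) and MRPL33 (-0.89 ± 0.23 SE, adjusted p = 0.00855, edgeR). MRPS26 differed from the other 5 in that nilotinib lowered it without hemin and left it at 0.37 with hemin (adjusted p = 0.163, edgeR), whereas MRPS17, MRPL57, MRPL18 and MRPL33 did not pass without hemin and MRPS6 passed in both with opposite signs. The other 13 positive members were MRPS12, MRPL46, MRPS30, MRPL16, MRPL19, MRPL38, MRPL15, MRPL35, MRPS11, MRPS25, MRPL36, MRPS16 and MRPL14, and the other 3 negative ones were MRPL58, MRPL44 and MRPL52. Without hemin DMSO replicate 1 there were 12 negative members, and without mock DMSO replicate 1 there were 3. The split also moved with scaling, to 26 positive and 4 negative without composition factors (all-gene median 0.27), 15 and 13 with upper-quartile factors, and 16 and 10 in DESeq2.

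13 of the 78 members (16.7%) passed in none of the 4 group comparisons and 0 passed in all 4, where 18.7% and 1.98% of all tested genes did. The 13 were MRPL20, MRPL37, MRPL39, MRPL41, MRPL53, MRPS9, MRPS10, MRPS14, MRPS21, MRPS24, MRPS28, MRPS33 and MRPS36. MRPS36, which is a subunit of the 2-oxoglutarate dehydrogenase complex rather than of the ribosome, measured 16.7, 17.2 and 20.2 CPM in mock DMSO, 20.8, 22.5 and 20.1 in mock nilotinib, 15.9, 17.8 and 15.3 in hemin DMSO and 23.1, 20.6 and 16.9 in hemin nilotinib. Its hemin DMSO libraries overlapped mock DMSO and hemin nilotinib but not mock nilotinib, and its log2 fold changes ran from -0.14 to 0.31. MRPS18A measured 26.9, 29.6 and 28.3 CPM in mock DMSO, 20.4, 19.9 and 21.9 in mock nilotinib, 28.5, 32 and 31.5 in hemin DMSO and 22.1, 24.4 and 22.8 in hemin nilotinib. The mock nilotinib libraries were the lowest, the hemin nilotinib libraries came next, and the DMSO groups overlapped each other above them. MRPS18A fell with nilotinib by 0.45 without hemin and by 0.41 with hemin on the log2 scale (adjusted p = 0.00808 and 0.00839, edgeR), and 47.0% of its exons are overlapped on the other strand by RSPH9.

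**Figure D3:**
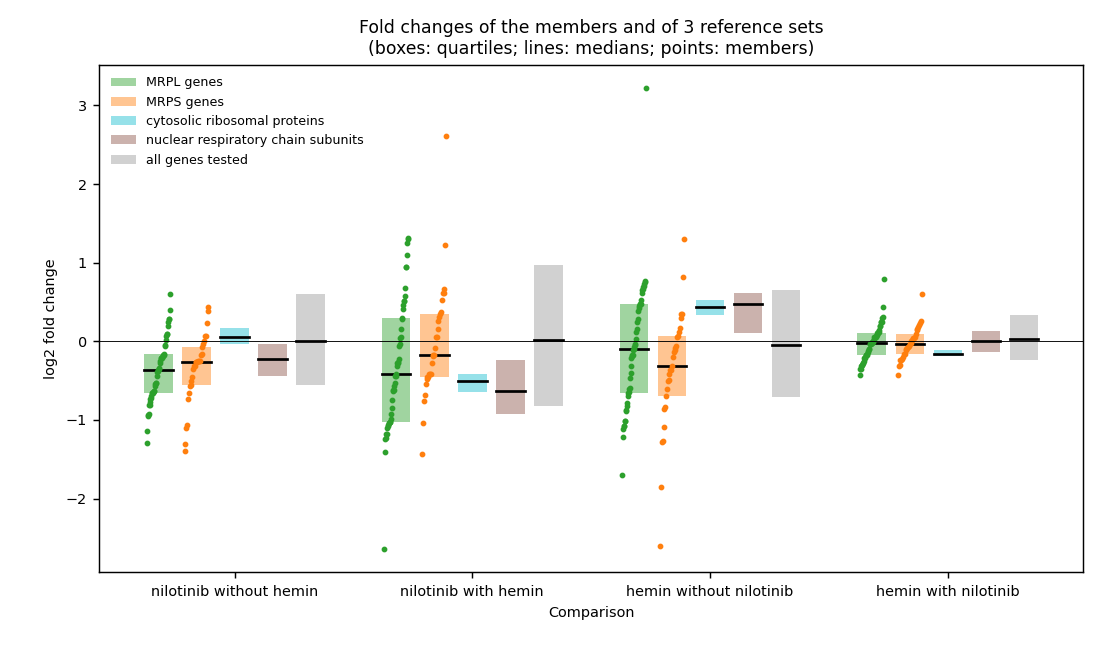
Log2 fold changes (vertical axis) in the 4 group comparisons (horizontal axis) for MRPL and MRPS genes (points with quartile boxes) and, as quartile boxes, for cytosolic ribosomal proteins, nuclear respiratory chain subunits and all genes tested; black lines are medians. With hemin alone the boxes of both MRP sets straddle 0, whereas the cytosolic ribosomal proteins sit in a narrow box around 0.44.

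The cytosolic ribosomal proteins and the nuclear respiratory chain subunits are the large families most like the members. Of 79 tested cytosolic ribosomal proteins 51 rose and 0 fell with hemin alone in edgeR (59 and 0 at an unadjusted p under 0.05, 62 and 0 in DESeq2, median 0.44, interquartile range 0.20), where the members had 18, 28, -0.16 and 1.02. With nilotinib in hemin-treated cells 64 fell (median -0.50), and with nilotinib without hemin 3 rose and 3 fell (median 0.05), where 33 members fell. Of 77 tested nuclear respiratory chain subunits 39 rose and 7 fell with hemin alone (median 0.48), 3 rose and 17 fell with nilotinib without hemin (median -0.23), and 4 rose and 52 fell with nilotinib in hemin-treated cells (median -0.63). The interquartile range over all genes with hemin alone was 1.37.

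By functional part of the large subunit, all 8 measured proteins of the central protuberance passed with nilotinib in hemin-treated cells, 3 higher and 5 lower, where 64.2% of all tested genes passed in either direction, and with hemin alone 3 rose and 3 fell, from MRPL18 at 3.22 to MRPS30 at -1.27. Of 6 proteins at the exit tunnel and the membrane anchor 4 (66.7%) passed with nilotinib in hemin-treated cells, all lower. With hemin alone 3 (50%) passed, all higher, where 53.6% of all tested genes passed in either direction. With both directions counted these shares were near those of all genes, as were those of the L7/L12 stalk and its base, at 60% in both comparisons. By direction, 31.8% of all tested genes were lower with nilotinib in hemin-treated cells. With hemin alone 25.7% were higher and 27.8% lower. Whether these small sets differ from all genes by direction was not tested. Of the 5 proteins of the L7/L12 stalk and its base, a part that recruits translation factors, 3 fell with nilotinib in hemin-treated cells and 2 rose and 1 fell with hemin alone. The one that fell was MRPL12, the stalk protein itself (-1.01 ± 0.26 SE, adjusted p = 0.00374, edgeR), of which 68.2% of the exons are shared with AC139530.2.

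The summed CPM of the 78 members was 3556 to 3911 in mock DMSO, 2884 to 3052 in mock nilotinib, 3408 to 4588 in hemin DMSO and 2574 to 3177 in hemin nilotinib. Mock nilotinib lay below mock DMSO without overlap, hemin DMSO overlapped mock DMSO, and the nilotinib groups overlapped each other. As a share of all counts, with no scaling, the members held 0.386% to 0.403% in mock DMSO and 0.308% to 0.387% in hemin DMSO, so the order of these 2 groups turned with the scaling. The ratio of MRPL to MRPS sums was 1.36 to 1.38 in mock DMSO, 1.39 to 1.41 in mock nilotinib, 2.02 to 2.13 in hemin DMSO and 1.42 to 1.56 in hemin nilotinib. Without MRPL18, which held up to 16.1% of the sum in hemin DMSO, the ratio was 1.32 to 1.34, 1.35 to 1.37, 1.62 to 1.63 and 1.37 to 1.44 in the same order, so hemin DMSO still lay above the other groups without overlap. Also without MRPL18, the group means of the sum were 3667 CPM in mock DMSO, 2928 in mock nilotinib, 3312 in hemin DMSO and 2761 in hemin nilotinib.

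**Figure D4:**
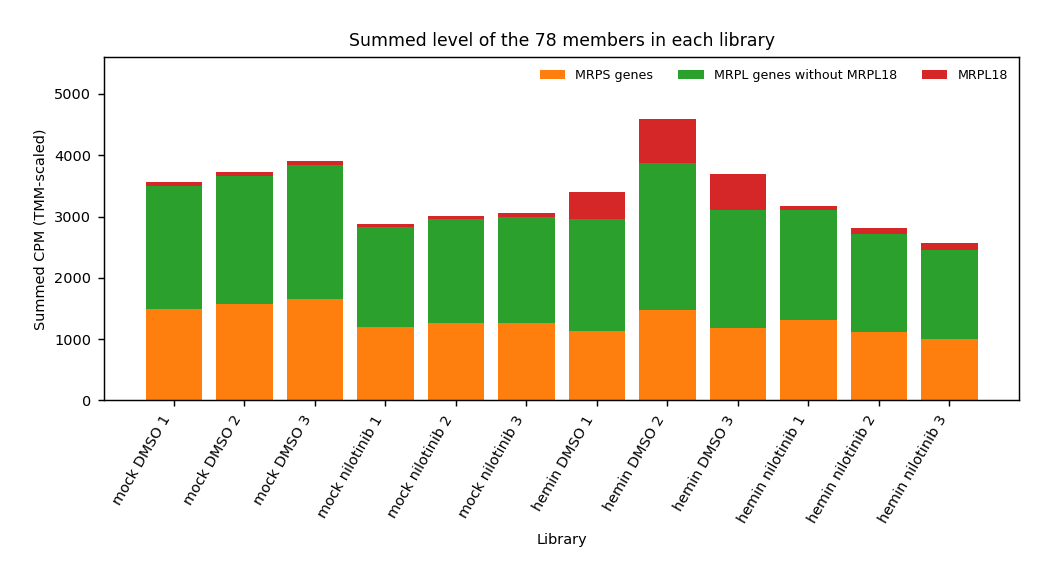
Summed CPM of the 78 members (vertical axis, from 0) in each library (horizontal axis), stacked as MRPS genes, MRPL genes without MRPL18, and MRPL18. MRPL18 is a thin layer in most libraries and a broad one in the 3 hemin DMSO libraries.

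Per kilobase the members spanned a wide range. The 3 highest MRPL genes by the mean of all libraries were MRPL18 at 145 CPM per kilobase, MRPL37 at 76.0 and MRPL14 at 51.4, and the 3 highest MRPS genes were MRPS34 at 83.7, MRPS18B at 46.0 and MRPS16 at 43.5. The place of MRPL18 came from the hemin DMSO libraries, where it stood at 426 against 45.7 in mock DMSO. MRPL37, specific to mitochondria, measured 193, 211 and 209.8 CPM in mock DMSO, 192, 222 and 231 in mock nilotinib, 157, 219.8 and 168 in hemin DMSO and 175, 181 and 165 in hemin nilotinib. MRPL14, which lies at the face between the subunits, measured 54.3, 56.5 and 61.97 CPM in mock DMSO, 52.04, 50.2 and 48.9 in mock nilotinib, 34.99, 35.7 and 39.7 in hemin DMSO and 65.2, 45.95 and 46.02 in hemin nilotinib. For MRPL37 the hemin nilotinib libraries lay below both mock groups and all other pairs of groups overlapped, while the hemin DMSO libraries of MRPL14 lay below all the others.

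MRPS34, specific to mitochondria, measured 106, 106 and 109 CPM in mock DMSO, 82.2, 82.5 and 93.96 in mock nilotinib, 87.8, 119 and 95.3 in hemin DMSO and 87.3, 68.7 and 63.95 in hemin nilotinib. MRPS18B measured 105, 116 and 122 CPM in mock DMSO, 74.2, 80.4 and 75.9 in mock nilotinib, 76.8, 107 and 84.03 in hemin DMSO and 79.05, 67.9 and 53.1 in hemin nilotinib. The hemin DMSO libraries of both overlapped mock DMSO, and the nilotinib libraries of MRPS18B were below all mock DMSO libraries. MRPS16, the counterpart of bS16, measured 148, 155 and 154 CPM in mock DMSO, 135, 125 and 126 in mock nilotinib, 68.3, 104 and 80.5 in hemin DMSO and 146, 120.0 and 97.1 in hemin nilotinib. Hemin DMSO overlapped hemin nilotinib here and lay below the other 2 groups.

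The lowest MRPL genes per kilobase were MRPL46 at 0.673, MRPL38 at 1.16 and MRPL53 at 1.55, and the lowest MRPS genes were MRPS24 at 0.0766, MRPS28 at 1.76 and MRPS17 at 1.92. MRPL46, a central protuberance protein, measured 5.33, 4.32 and 5.401 CPM in mock DMSO, 5.58, 3.82 and 4.09 in mock nilotinib, 2.91, 2.71 and 1.85 in hemin DMSO and 7.36, 3.57 and 5.03 in hemin nilotinib. MRPL53, at the base of the stalk, measured 2.05, 1.53 and 2.08 CPM in mock DMSO, 2.76, 2.77 and 3.08 in mock nilotinib, 1.84, 0.957 and 1.496 in hemin DMSO and 2.098, 1.73 and 2.55 in hemin nilotinib. The hemin DMSO libraries were the 3 lowest for MRPL46 and overlapped mock DMSO for MRPL53, whose mock nilotinib libraries were the 3 highest and of which 45.2% of the exons are shared with CCDC142. MRPS24, the counterpart of uS3, measured 0.27, 0.0716 and 0.192 CPM in mock DMSO, 0.101, 0.175 and 0.26 in mock nilotinib, 0.214, 0.16 and 0.152 in hemin DMSO and 0.287, 0.192 and 0.327 in hemin nilotinib. Its level stood on as few as 3 counts in a library, the groups overlapped, no difference was detectable at this depth, and 23.2% of its exons are shared with the read-through gene URGCP-MRPS24. MRPS28 measured 3.89, 3.51 and 3.92 CPM in mock DMSO, 3.196, 3.27 and 3.08 in mock nilotinib, 1.93, 3.35 and 2.69 in hemin DMSO and 4.25, 2.99 and 2.34 in hemin nilotinib. The groups of MRPS28 overlapped in part, and 35.8% of its exons are shared with AC036214.3. The order of the members by level per kilobase was similar in all groups, with Spearman's rho across the 78 genes from 0.846 for mock nilotinib with hemin DMSO to 0.99 for mock nilotinib with hemin nilotinib, as a description of genes that share their libraries.

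**Figure D5:**
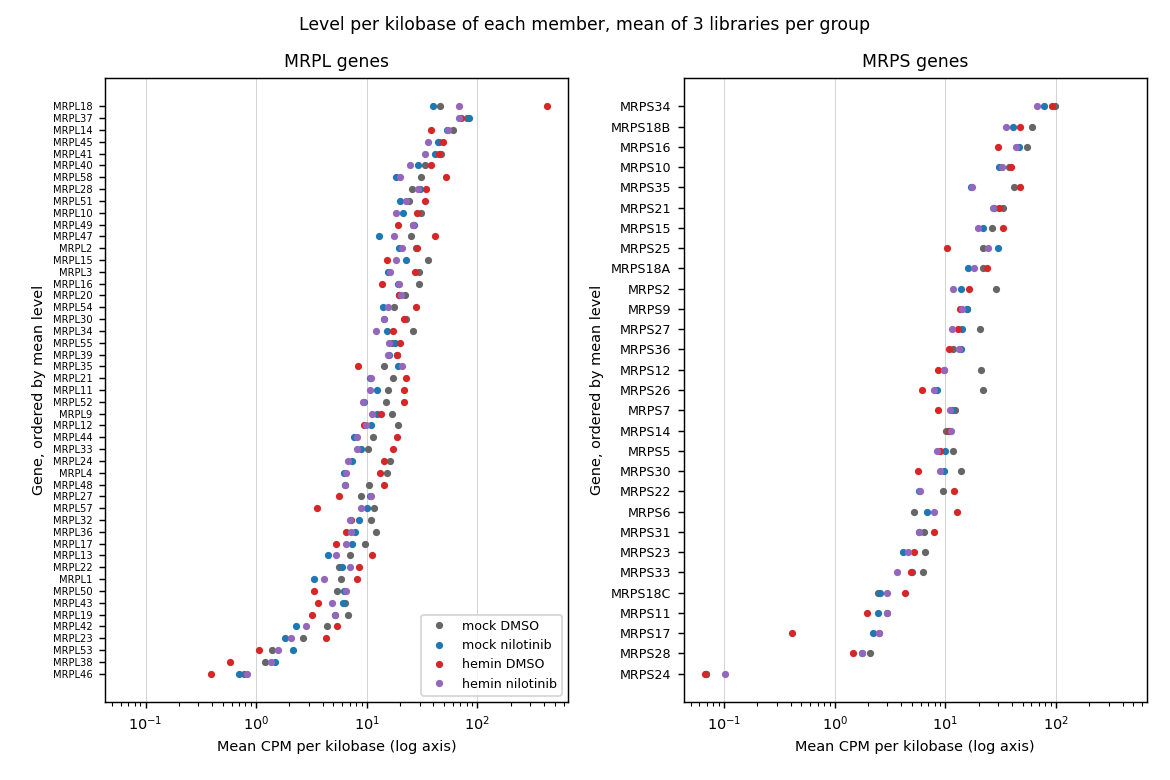
Mean level per kilobase (horizontal log axis, CPM per kilobase) of each MRPL and MRPS gene (vertical axis, ordered by the mean of all 12 libraries), with a point for each of the 4 groups. MRPL18 in hemin DMSO lies at 426, apart from its other 3 groups, and MRPS24 lies at the low end in every group.

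Many members start close to a neighbour on the other strand. In GENCODE 29, whose coordinates matched those of all 78 members in the table, 29 members (37.2%) had a protein-coding gene on the other strand that starts within 1000 bases, head to head, against 2586 of 19951 protein-coding genes (13.0%). MRPL46 and MRPS11 were each other's neighbour, with starts 34 bases apart. MRPS11, the counterpart of uS11, measured 16.7, 16.7 and 16.9 CPM in mock DMSO, 15.6, 12.98 and 13.3 in mock nilotinib, 11, 12.1 and 9.87 in hemin DMSO and 22.1, 15.5 and 12.8 in hemin nilotinib. Both were lowest in hemin DMSO, with log2 fold changes for hemin alone of -1.01 for MRPL46 and -0.61 for MRPS11 (adjusted p = 0.00585 and 0.0113, edgeR).

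The 29 members made 27 distinct pairs in which both genes were tested. Both genes of a pair passed with hemin alone in 12 pairs (44.4%), 8 of them in the same direction, where both passed in 36.3% of the 1126 such pairs of protein-coding genes and 59.4% of these went in the same direction. With nilotinib in hemin-treated cells both passed in 15 pairs (55.6%), 9 in the same direction, against 495 of the 1126 pairs and 60.8% of these over all protein-coding genes. MRPL57 and its neighbour SKA3, a kinetochore protein, had log2 fold changes with hemin alone of -1.70 and -1.07. MRPL36 and NDUFS6, a subunit of complex I, went apart at -0.89 and 0.69 (adjusted p = 0.0128 for NDUFS6, edgeR). MRPL47 rose by 0.73 beside a value of -0.07 for NDUFB5, another subunit of complex I (adjusted p = 0.761, edgeR). CACYBP, which covers 13.5% of the exons of MRPS14 on the other strand, averaged 126 CPM in mock DMSO and 1090 CPM in hemin DMSO, while MRPS14 had a log2 fold change of 0.07 (adjusted p = 0.721, edgeR).

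Motifs were counted on both strands of the RefSeq promoter windows, which run from 250 bases before to 50 bases after the start and were given for 69 of the 78 members. The ETS motif CCGGAAG was in 42.0% of the member windows, 12.8% of the 22199 windows of protein-coding genes and 10.3% of all 35116 windows. It was in 10 of the 16 windows of members that rose with hemin alone, 7 of the 26 of members that fell and 12 of the 27 of the rest. The YY1 motif ATGGCG was in 47.8% of the member windows, 13.1% of the protein-coding and 10.7% of all windows, and in 8 of 16 and 12 of 26 of the members that rose and fell. Its letters can also be a start codon with an alanine codon after it, and in the 250 bases before the start the shares were 15.9% of the members and 7.2% of protein-coding genes. The NRF1 motif GCATGCGC was in 8.7% of members, 3.7% of protein-coding genes and 3.1% of all windows, and the E-box CACGTG in 8.7%, 8.3% and 7.3%.

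A heat shock element (GAANNTTC or TTCNNGAA) was in 17.4% of the member windows, 11.6% of the protein-coding and 13.5% of all windows. It was in 6 of the 16 windows of members that rose with hemin alone, MRPL18 among them, 0 of the 26 of members that fell and 6 of the 27 of the rest. This search was added after the value of MRPL18 was known. Of the 5 members with the largest rise with hemin alone, MRPS6, MRPS18C and MRPL58 held neither form in their windows. MRPL33 held TTCNNGAA at positions -167 and -28 from its start. The second is shown here with 8 bases on either side (chr2:27771683-27771706, plus strand, RefSeq, GRCh38.p14) because MRPL33 was also among those 5 members.
MRPL33: atgtcctcTTCCAGAAccgggccg
The ETS motif overlapped a heat shock element of the GAANNTTC form in 1 member and of the TTCNNGAA form in 3, and both forms overlapped each other in 2. No other pair of these motifs overlapped in a member window.

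Of 9 regulators of nuclear mitochondrial genes 8 were tested. With hemin alone 2 were higher and 3 lower (25% and 37.5%), against 25.7% and 27.8% of all tested genes. GABPB1, a subunit of the ETS-family factor GABP, measured 25.8, 27.7 and 27.97 CPM in mock DMSO, 22.8, 24.3 and 23.1 in mock nilotinib, 57.5, 72.2 and 55.7 in hemin DMSO and 24.4, 29.5 and 26.6 in hemin nilotinib. Its hemin DMSO libraries lay above all others, at 1.19 (± 0.13 SE, adjusted p = 2.58e-06, edgeR), while GABPA, the subunit that binds DNA, had -0.04 (adjusted p = 0.843, edgeR). MYC, a broad activator of ribosome and mitochondrial genes, fell by 2.18 on the log2 scale with nilotinib without hemin (adjusted p = 3.67e-09, edgeR), and PPARGC1B, a coactivator of mitochondrial genes, had -2.15 (adjusted p = 3.31e-05, edgeR). In that comparison 1 of the 8 was higher and 4 lower (12.5% and 50%), against 20.7% and 21.8% of all tested genes. ESRRA, a nuclear receptor that works with such coactivators, had -1.14 with hemin alone (adjusted p = 3.17e-06, edgeR). With nilotinib in hemin-treated cells 1 was higher and 3 lower (12.5% and 37.5%), against 32.4% and 31.8% of all tested genes.

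The RNAs of the mitochondrial ribosome were higher with nilotinib in cells without hemin. MT-RNR1, the small-subunit rRNA, measured 453, 407 and 320.4 CPM in mock DMSO, 1317, 815 and 638 in mock nilotinib, 806, 554 and 495 in hemin DMSO and 824, 774 and 654 in hemin nilotinib. MT-RNR2 is the large-subunit rRNA. The mock nilotinib libraries of both lay above all mock DMSO libraries, with log2 fold changes of 1.23 and 1.32 (adjusted p = 0.000613 and 0.000499, edgeR), in the comparison in which 33 member genes fell. These 2 levels are what remained after library preparation, whose handling of rRNA and of transcripts without long poly(A) tails is not given in the sources used here. With hemin alone the log2 fold changes of the 2 rRNAs were 0.46 and 0.65, and 1 of them was called higher. With nilotinib in hemin-treated cells they were 0.28 and 0.90, and 1 was called higher. Transcripts of the mitochondrial genome held 5.20% to 8.83% of counts in the mock DMSO and nilotinib libraries and 1.45% to 2.88% in hemin DMSO.

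Factors that assemble the mitochondrial ribosome mostly fell with hemin alone. Of 25 such genes 20 (80%) fell and 1 (4%) rose with hemin alone (median -0.71). Of all tested genes 27.8% were lower and 25.7% higher in that comparison. With nilotinib in hemin-treated cells 11 (44%) were higher and 3 (12%) lower, against 32.4% and 31.8% of all genes. With nilotinib without hemin 2 (8%) were higher and 6 (24%) lower, against 20.7% and 21.8%. With hemin in nilotinib-treated cells 1 was higher and 1 lower (4% each), against 3.52% and 2.28%. The gene lists were chosen with earlier results of these data known. MRM1, which methylates the large-subunit rRNA, measured 14.97, 15.1 and 12.7 CPM in mock DMSO, 18.7, 14.1 and 9.803 in mock nilotinib, 2.15, 2.202 and 0.964 in hemin DMSO and 20.2, 8.4 and 5.89 in hemin nilotinib. Its hemin DMSO libraries were the 3 lowest and its hemin nilotinib libraries were spread widely, with -3.02 for hemin alone (± 0.41 SE, adjusted p = 1.73e-05, edgeR). MTG1, a GTPase of large-subunit assembly, RBFA, a factor of small-subunit maturation, and DDX28, a helicase of large-subunit assembly, had -1.95, -1.89 and -1.83 (adjusted p = 2.55e-05, 5.49e-07 and 3.06e-05, edgeR).

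Of 16 genes for mitochondrial translation factors and related proteins, 9 fell with nilotinib without hemin, 3 rose and 7 fell with nilotinib in hemin-treated cells, and 4 rose and 7 fell with hemin alone. The shares that fell were 56.2%, 43.8% and 43.8% in that order, against 21.8%, 31.8% and 27.8% of all tested genes. The shares that rose were 0%, 18.8% and 25%, against 20.7%, 32.4% and 25.7%. TUFM, the elongation factor that brings in aminoacyl-tRNA, measured 331, 335 and 349.7 CPM in mock DMSO, 152, 162 and 184 in mock nilotinib, 375, 512 and 368 in hemin DMSO and 177, 153 and 144 in hemin nilotinib. Both nilotinib groups lay below both DMSO groups, at -1.03 without and -1.41 with hemin (adjusted p = 3.67e-05 and 6.22e-07, edgeR). MTIF2, the initiation factor, had -0.98 and -1.35, and LRPPRC, which stabilises mitochondrial mRNAs, -1.26 and -0.97, in the same 2 comparisons. GFM2, which recycles ribosomes after translation ends, rose with hemin alone by 1.33 (adjusted p = 8.39e-07, edgeR).

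Of 5 genes for transcription of mitochondrial DNA 4 fell with hemin alone and 3 with nilotinib without hemin, while with nilotinib in hemin-treated cells 2 rose and 1 fell. Of all tested genes 27.8% and 21.8% fell in the first 2 comparisons, and 32.4% rose and 31.8% fell in the third. TEFM, the elongation factor of that transcription, and MTERF1, a termination factor, had 1.39 and 1.21 with nilotinib in hemin-treated cells (adjusted p = 1.12e-05 and 8.98e-05, edgeR). TFB2M and TFAM, which open and bend promoter DNA, had -1.10 and -0.85 with nilotinib without hemin (adjusted p = 1.2e-05 and 0.00125, edgeR). With hemin alone 25.7% of all tested genes rose and 27.8% fell. Of 5 mitochondrial ribosomal proteins whose symbols do not begin with MRP, 1 rose and 1 fell in that comparison. These were AURKAIP1 at 0.60 and PTCD3, a small-subunit protein that measured 109, 101 and 113 CPM in mock DMSO, 91.8, 81.2 and 77.3 in mock nilotinib, 39.2, 46.1 and 44.5 in hemin DMSO and 115, 96.5 and 94.9 in hemin nilotinib and was lowest in hemin DMSO at -1.32 (adjusted p = 0.000908 and 4.6e-07, edgeR). DAP3, a GTP-binding small-subunit protein, had -0.34 (adjusted p = 0.0824, edgeR).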

How the data were processed

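RNA-seq libraries (total RNA, paired-end, NovaSeq) of 12 K562 samples were used, grouped by their titles. The authors deposited a table of raw read counts per gene and one of FPKM, whose divisor equals median-ratio size factors; a table of group means was not used here. The submitters' processing notes name DESeq, DESeq2 and GRCh38.p12, while the aligner, the counting program and strandedness are not given in the sources used here. Counts were filtered with filterByExpr (minimum count 10, total 15), scaled by TMM and fitted over all 4 groups without a block by edgeR 4.0.16 in R 4.3.3, with quasi-likelihood tests of 4 comparisons and their interaction and an adjusted p threshold of 0.05. The depth of 33457078 to 50506990 counts and the biological coefficient of variation of 0.198, on 8 residual degrees of freedom, set the precision. The scripts were tested on simulated data.

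The members and gene lists were chosen with earlier results of these data known. Library values were given for the 5 largest rises and falls past the threshold in 3 comparisons, up to 3 each way in the other comparison and the interaction, the 3 highest and lowest members per kilobase in each subunit, and MRPS18A, MRPS30 and MRPS36. Library values of MRPS11, the sequences shown, members named as neighbours and genes outside the lists were added after their values were seen. Same-numbered replicates correlated, after group means were removed, at 0.263, 0.199 and 0.254 for hemin with nilotinib, but not above 0.1 in every pair of the other comparisons (-0.007 to 0.235), and the labels give no shared source. Alternatives were DESeq2 1.42.0, other scaling factors and filters, limma 3.58.1 on log2(FPKM + 1) and log2(FPKM + 0.1), a replicate block, fits of 6 libraries and leaving out each library. Overlaps and neighbours came from GENCODE 29 and promoters from RefSeq (GRCh38.p14). Tables and figures used Python 3.11.15, pandas 2.3.3, numpy 2.4.6 and matplotlib 3.10.9.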

Additional observations from a re-analysis of the deposited data

Results flagged for a closer look

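The effect of nilotinib differed between cells with and without hemin for 22 of the 78 members, by the interaction test of edgeR with Benjamini-Hochberg adjustment, which is 28.2% of the members where 30.1% of all tested genes passed. On the log2 scale the effect with hemin minus that without was 2.78 for MRPS17, 1.75 for MRPS26, 1.5 for MRPL57, -2.43 for MRPL18, -1.07 for MRPS6 and -0.89 for MRPL33, which are the 3 largest in each direction. The cause of these differences was not tested. If the mock cells were collected at the time of hemin addition, hemin and time cannot be told apart in these differences.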

How the results depend on the processing

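Of 764 values of 35 named members and comparisons under 22 alternatives, 738 kept their call and direction, 26 lost the call and 0 reversed. The losses were MRPL18 for hemin in nilotinib-treated cells (8) and MRPS6 (7), MRPS25 (6) and MRPL35 (5) for nilotinib without hemin. With hemin in nilotinib-treated cells the number of members called was 0 in limma on log2(FPKM + 1), 0 in limma on log2(FPKM + 0.1) and 0 in the fit of 6 libraries, and 0 to 7 when single libraries were left out. In the other comparisons leaving out single libraries gave 47 to 52 for nilotinib with hemin, 29 to 39 for nilotinib without hemin, 39 to 49 for hemin without nilotinib and 17 to 28 for the interaction. The fit of 6 libraries called 6 higher and 46 lower for nilotinib without hemin. With the replicate number as a block the counts were 52, 38, 46, 1 and 23, against 51, 36, 46, 1 and 22 without it, for nilotinib with and without hemin, hemin without and with nilotinib and the interaction. For the members the interaction split moved from 16 higher and 6 lower to 21 higher and 3 lower with every gene with at least 1 count and to 13 and 9 in limma with either constant. The size of the MRPS17 difference with hemin alone ranged from -2.83 to -1.29, the latter with 1 FPKM added. That setting also gave 1.26 and 1.38 for MRPS17 with nilotinib in hemin-treated cells and in the interaction, and 0.56 for MRPL38. The causes were not tested. MRPS24, with as few as 3 counts in a library, is limited by depth.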
